A study of Homo sapiens with 8 samples.

Results

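ATP-binding cassette (ABC) genes were compared between PNT2 cells depleted of the splicing factors ESRP1 and ESRP2 and control PNT2 cells. The family was taken as every row of the deposited array table annotated to a single gene symbol made of ABC, a letter from A to G and a number. That gave 39 rows for 39 genes out of 18495 rows, with 12 genes in subfamily A, 7 in B, 9 in C, 3 in D, 1 in E, 2 in F and 5 in G. A further 6 rows hold such a symbol together with another gene and were not used.

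PNT2 is an established human line of prostatic epithelium immortalized with a viral large T antigen, and all 8 samples are from this line, so the comparison concerns 1 cell line. RNA from 4 samples given siRNA against both ESRP1 and ESRP2 (siESRP) and 4 given siRNA against green fluorescent protein (siGFP, the control) was hybridized to Affymetrix exon arrays, 1 array per sample. Nothing in the labels says that the samples of a group were grown as separate cultures. The p-values therefore set each difference only against the variation among these samples, and that variation may be technical.

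Most ABC proteins are pumps. They couple ATP binding and hydrolysis to the movement of a substrate across a membrane, and the subfamilies differ in what they carry: lipids for most of subfamily A, drugs, bile components and peptides in B, organic anions and conjugates in C, fatty acyl compounds and vitamin B12 in D, and sterols or drugs in G. Members of E and F lack membrane-spanning parts and act on ribosomes. ABCA12 delivers glucosylceramides to the lamellar granules that build the lipid barrier of the skin, and its loss causes harlequin ichthyosis. In the prostate, family members are studied mainly for efflux of drugs, prostanoids and androgens.

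Intensities are given after quantile normalization, in arbitrary array units. Differences are siESRP minus siGFP on the log2(value + 1) scale, with values below 0 set to 0 first. A row is called when its limma p-value, adjusted by the Benjamini-Hochberg method over all 18495 rows, is under 0.05. That held for 20.2% of all rows, the share beside which the marker counts below stand. Different rows have different probes, so each difference is between groups within a row. The siRNA targets checked the labels. ESRP1 fell from 2439 ± 169 to 582 ± 66.9 (SD, n = 4 each; limma adjusted p = 6.58e-05), and the row shared by ESRP2 and NFATC3 was 72.1% lower in siESRP. Deposited array medians ran from 233 to 286. Of 6 epithelial markers CDH1 (1.42-fold, adjusted p = 0.00182) and KRT18 (1.22-fold, 0.00681) rose. Groups did not overlap in 4 of the 6 (66.7%, against 24.6% of all rows). These were CDH1, KRT18 and CLDN7, higher in siESRP, and KRT7, lower (log2 difference −0.27, not called). EPCAM also had a negative difference (−0.11, not called). The 6 summed to between 21717 and 23011 in siGFP and to between 23526 and 24651 in siESRP. Of 5 measured basal prostate markers KRT15 and ITGA6 rose and KRT14 fell. The 5 measured luminal prostate markers summed to at most 194 on any array. Of these 5, 0 were called by limma and 1 had an unadjusted p under 0.05. KLK2 had means of 79.2 in siGFP and 76.3 in siESRP, KLK3 61.7 and 65.2, and TMPRSS2 22.2 and 32.5. MSMB was near 0 in both groups, and HOXB13 ran from −2 to 30.1 in siGFP and from −9.75 to 6.62 in siESRP. Among markers of other cell types, 1 of 6 fibroblast genes fell (COL1A1), with sums of 479 to 563 in siGFP and 394 to 453 in siESRP. Of 5 endothelial genes CDH5 rose and TEK fell (348 to 406 and 416 to 503), of 4 leukocyte genes CSF1R fell (148 to 218 and 119 to 142), and of 4 hepatocyte genes 0 were called by limma and 0 had an unadjusted p under 0.05. Means were under 50 in both groups for 1 of the 4 hepatocyte genes (ALB) and 1 of the 6 fibroblast genes (LUM). The same held for 3 of the 5 endothelial genes and 3 of the 4 leukocyte genes, PTPRC among them. The hepatocyte genes summed to 324 to 397 in siGFP and to 264 to 373 in siESRP, with APOA1 at means of 207 and 178. The part of these markers in the ABC results was not tested. An exon array row summarises probes along a whole gene. Whether altered exon use moved any row was not tested, and in bulk RNA fewer cells of a type and less RNA per cell cannot be told apart.

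Promoter sequences show the start regions of the genes with the largest rise and the largest fall among called members, together with that of ABCA1, the cholesterol exporter. The RefSeq promoter table (GRCh38.p14, 250 bases before to 50 after the annotated start) held 31 of the 39 genes. ABCA4, ABCA8, ABCB4, ABCB5, ABCC1, ABCC3, ABCC13 and ABCG1 had no entry. Each sequence runs 5′ to 3′ along the gene's strand. Capitals mark matches on either strand to 7 short motifs, none of which contains another: the GC box (GGGCGG), the TATA box (TATAAA), the CCAAT box (CCAAT), an E-box (CACGTG), an AP-1 site (TGANTCA), a nuclear receptor core site (AGGTCA) and a grainyhead site (AACNNGTT).
ABCA12, chr2:215138577-215138876, minus strand: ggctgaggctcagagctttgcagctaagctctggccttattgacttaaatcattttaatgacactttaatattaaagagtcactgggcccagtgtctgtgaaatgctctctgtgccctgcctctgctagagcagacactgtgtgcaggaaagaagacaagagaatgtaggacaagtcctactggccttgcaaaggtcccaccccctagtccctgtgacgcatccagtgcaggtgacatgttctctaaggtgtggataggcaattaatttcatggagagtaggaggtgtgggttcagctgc
ABCA1, chr9:104928106-104928405, minus strand: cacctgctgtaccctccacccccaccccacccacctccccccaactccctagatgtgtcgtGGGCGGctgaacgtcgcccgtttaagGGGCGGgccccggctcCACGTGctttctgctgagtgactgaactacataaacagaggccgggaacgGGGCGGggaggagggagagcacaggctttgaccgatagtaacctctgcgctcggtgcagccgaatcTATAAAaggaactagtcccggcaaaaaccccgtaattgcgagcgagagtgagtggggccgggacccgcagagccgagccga
ABCC10, chr6:43427613-43427912, plus strand: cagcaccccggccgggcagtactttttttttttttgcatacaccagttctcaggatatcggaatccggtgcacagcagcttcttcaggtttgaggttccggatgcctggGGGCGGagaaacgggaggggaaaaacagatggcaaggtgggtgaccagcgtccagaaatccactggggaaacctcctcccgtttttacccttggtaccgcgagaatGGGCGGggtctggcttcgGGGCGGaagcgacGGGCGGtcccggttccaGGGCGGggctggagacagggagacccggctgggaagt

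The ABCA12 window held none of the 7 motifs and had 48.7% G and C, against a median of 58.3% over 27305 promoters of the same length. The ABCA1 window held 3 GC boxes, an E-box and a TATA box at 62.7% G and C. The ABCC10 window held 5 GC boxes at 60.3%. Over the 31 genes with a promoter, 16 (51.6%) had a GC box, against 44.6% of all promoters. These 16 were 4 of the 7 with a higher call, 2 of the 3 with a lower call and 10 of the 21 not called. A TATA box was found in 5 of 31 (16.1%, against 11.95% of all), a CCAAT box in 5 (16.1%, against 35.7%), an E-box and an AP-1 site in 2 each (6.45%, against 7.43% and 7.76%), and a nuclear receptor core site and a grainyhead site in 1 each (3.23%, against 13.9% and 3.50%). The nuclear receptor core site was in the ABCD4 window. These counts describe letters in 1 window per gene, and which start site PNT2 cells use was not measured.

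Of the 39 ABC genes, 11 were called: 8 were higher in siESRP (ABCA1, ABCA2, ABCA12, ABCA13, ABCC3, ABCC5, ABCD3 and ABCD4) and 3 were lower (ABCA3, ABCC4 and ABCC10). These 11 are 28.2% of the family, against 20.2% of all rows. Over all rows 10.9% were called higher and 9.31% lower. The same 11 genes were the ones whose groups did not overlap, where 24.6% of all rows had groups that did not overlap. With a change of at least 1.5-fold, 3 of the 39 genes stayed, ABCA1, ABCA12 and ABCC3, all higher. At that threshold 866 of all 18495 rows were called higher and 443 lower. All calls fell in subfamilies A (5 of 12), C (4 of 9) and D (2 of 3). Subfamilies B, E, F and G had 0 calls among 15 genes by limma, of which ABCG2 alone had an unadjusted p under 0.05. Whether subfamilies differ was not tested.

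**Figure D1:**
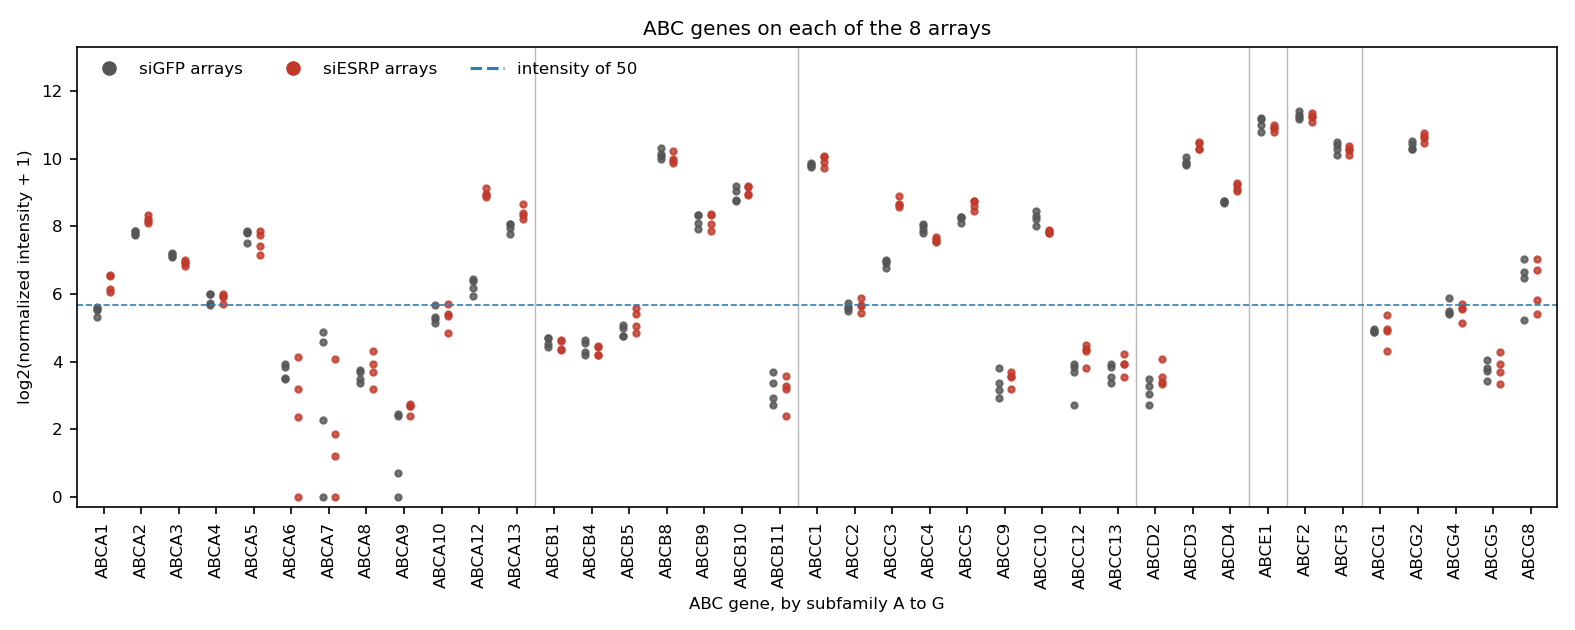
log2(normalized intensity + 1) of the 39 ABC genes on each array, siGFP in grey and siESRP in red, with vertical lines between subfamilies and a dashed line at an intensity of 50. The red points of ABCA12 and ABCC3 lie clear above the grey ones, and 17 genes have both group means under 50.

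The median log2 difference was 0.05 over the family and −0.02 over all rows. That sign depends on the scaling: with values as deposited both medians were −0.10, and with arrays scaled to a common median both were −0.11. The direction of each of the 11 called genes was the same under every scaling. By build, 9 of the 24 full-length transporters (37.5%, against 20.2% of all rows) were called, 6 higher and 3 lower. Of the 11 short ones, which must pair to work, 2 (18.2%) were called, both higher. Both means were under 50 for 12 of the full-length genes and 4 of the short ones. The other 4 genes are ABCE1, ABCF2, ABCF3 and the pseudogene ABCC13.

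Subfamily A, the lipid carriers, held the largest change. ABCA12 read 70.8, 81.6, 85.2 and 60.5 on the siGFP arrays and 563, 489, 492 and 464 on the siESRP arrays. All 4 siESRP arrays lie far above the highest siGFP array. ABCA12 rose from 74.5 ± 11.2 to 502 ± 42.5 (SD, n = 4 each), a log2 difference of 2.74 ± 0.12 SE (95% interval 2.46 to 3.03; limma adjusted p = 5.95e-05). The exact two-sided permutation p was 0.0286, the smallest that 4 against 4 arrays can give. Groups that do not overlap always give this value, so it adds nothing to the lack of overlap in ABCA12 and the other 10 called genes. The log2 difference stayed between 2.52 and 2.81 under 15 alternative settings and was called in each.

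ABCA1 exports cholesterol and phospholipid to apolipoprotein A-I. It read 44.7, 45.6, 47.6 and 39.0 in siGFP and 92.1, 93.0, 65.2 and 70 in siESRP. The groups did not overlap, and the control level was low. The mean rose from 44.2 ± 3.68 to 80.1 ± 14.5 (log2 difference 0.83 ± 0.14 SE, adjusted p = 0.00644), and the difference ran from 0.66 to 0.94 over the 15 settings, called in each.

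ABCA2, an endolysosomal lipid transporter best known from brain, read 231, 232, 214 and 216 in siGFP and 270, 318, 297 and 284 in siESRP. It rose 1.31-fold with no overlap (0.39 ± 0.06 SE, adjusted p = 0.00584). ABCA13, a very large relative of ABCA12, read 269, 266, 244 and 217 in siGFP and 319, 298, 402 and 338 in siESRP. It rose 1.36-fold (0.44 ± 0.11 SE, adjusted p = 0.0322), with siESRP replicate 3 the highest. ABCA3, which loads surfactant lipid into lamellar bodies of the lung, read 146, 145, 138 and 135 in siGFP and 122, 128, 112 and 119.6 in siESRP. It fell 1.17-fold (−0.23 ± 0.05 SE, adjusted p = 0.0264), the smallest of the 11 called changes.

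The calls of ABCA3 and ABCA13 were the least stable. ABCA3 lost its call in 8 of 15 settings, with adjusted p up to 0.162. These included values as deposited, a trended and robust variance model, and leaving out siGFP replicate 1, 2 or 3 or siESRP replicate 1 or 4. ABCA13 lost it in 7 settings, among them values as deposited (adjusted p = 0.102) and leaving out siGFP replicate 2, 3 or 4 or siESRP replicate 1 or 4.

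The other 7 genes of subfamily A were not called, which does not show that they are unchanged. ABCA4, the retinal carrier of vitamin A compounds, had means of 57.0 ± 7.07 and 58.7 ± 5.13 (95% interval of the log2 difference −0.20 to 0.29). ABCA5, a lysosomal member, had 214 ± 23.8 and 189 ± 40.5 (−0.60 to 0.20). ABCA6, ABCA7, ABCA8, ABCA9 and ABCA10 had means under 50 in both groups, and ABCA6, ABCA7 and ABCA9 had at least 1 array below 0, so no fold is given. ABCA7, a relative of ABCA1 linked to Alzheimer disease, ran from −0.625 to 28.5 in siGFP and from −5.50 to 15.8 in siESRP.

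**Figure D2:**
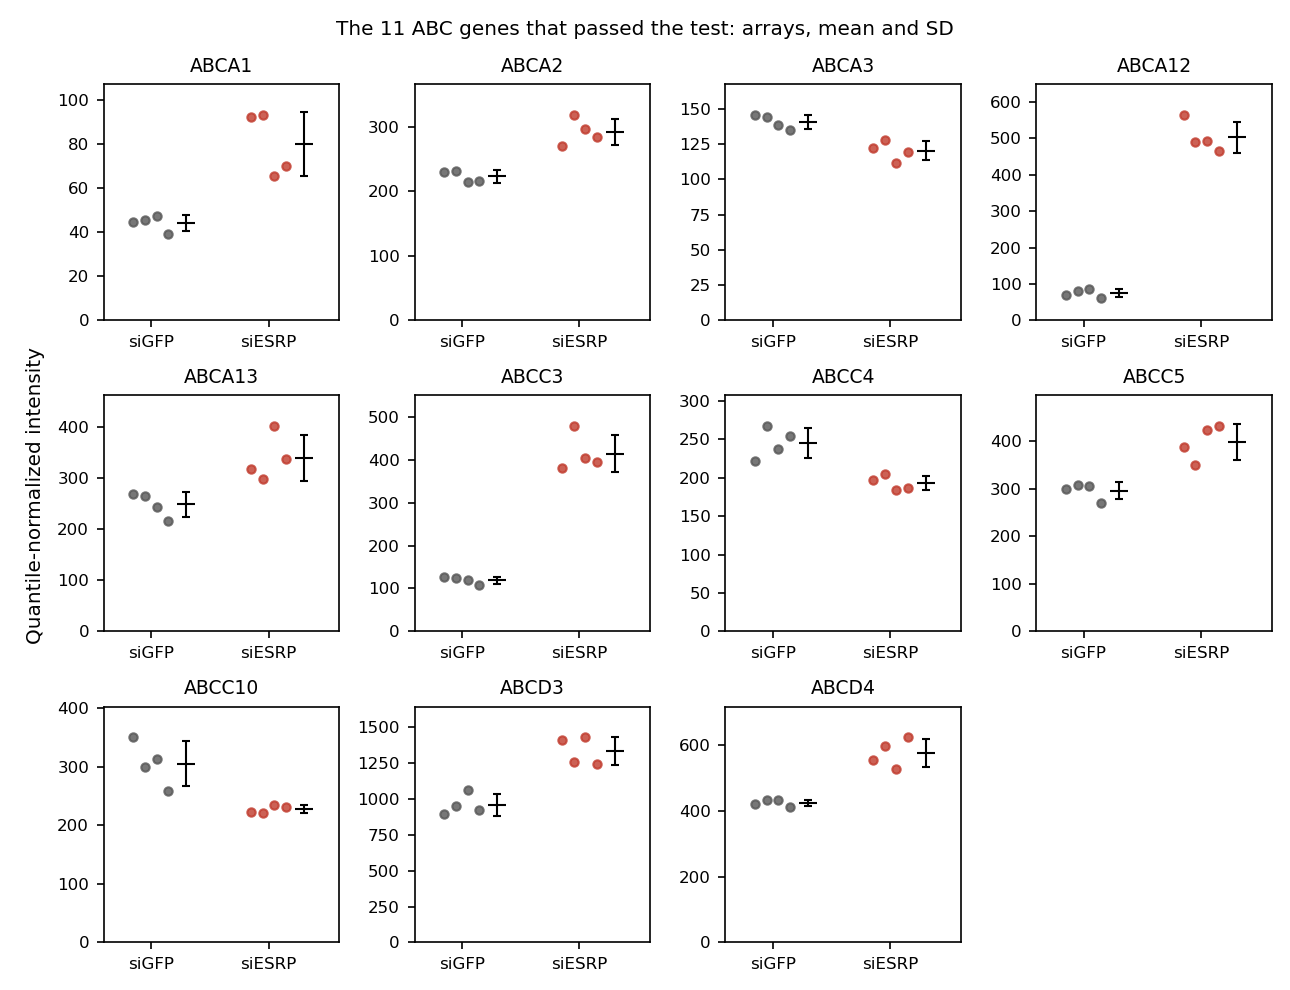
Quantile-normalized intensity of the 11 called ABC genes, 1 panel per gene with its own axis from 0. Points are the 4 arrays of each group, and the bar beside them is the mean with its SD. In each panel the siGFP and siESRP points do not overlap, and ABCA12 shows the widest separation, 74.5 against 502.

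Subfamily C, the multidrug resistance proteins that export organic anions and conjugates, changed in both directions. ABCC3, which exports glucuronide conjugates and bile salts across the basolateral membrane, read 126, 124, 119 and 107 in siGFP and 381, 478, 404 and 395 in siESRP. The groups are far apart, with siESRP replicate 2 the highest array. ABCC3 rose 3.45-fold from 119 ± 8.41 to 414 ± 43.4 (SD, n = 4 each; log2 difference 1.79 ± 0.09 SE, adjusted p = 7.86e-05), with 1.67 to 1.84 over the 15 settings and a call in each.

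ABCC5, an exporter of cyclic nucleotides and glutamate conjugates, read 300, 309, 305 and 271 in siGFP and 387, 351, 425 and 432 in siESRP. It rose 1.34-fold (0.42 ± 0.08 SE, adjusted p = 0.0111). ABCC4, which exports prostaglandins, cyclic nucleotides and steroid conjugates and is abundant in prostate, read 222, 267, 238 and 254 in siGFP and 197, 205, 184 and 187 in siESRP. It fell 1.27-fold (−0.34 ± 0.07 SE, adjusted p = 0.0144) and was called in all 15 settings. ABCC10, a drug exporter, read 350, 298, 314 and 258 in siGFP and 222, 221, 235 and 232 in siESRP. It fell 1.33-fold (−0.41 ± 0.09 SE, adjusted p = 0.0191), with much wider spread among controls (SD 38.0) than among siESRP arrays (SD 7.14). ABCC5 lost its call in 2 of 15 settings and ABCC10 in 5, among them values as deposited (adjusted p = 0.0892 and 0.148). ABCC10 also lost its call without siGFP replicate 3, siESRP replicate 1 or siESRP replicate 2.

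The other 5 genes of subfamily C were not called. ABCC1, the broad glutathione conjugate and drug exporter first found in resistant tumour cells, read 915, 941, 855 and 877 in siGFP and 946, 1073, 1050.5 and 844 in siESRP. Its groups overlap, with a 95% interval of −0.08 to 0.32 for the log2 difference. ABCC2, the apical counterpart of ABCC3, had means of 47.5 ± 3.04 and 49.5 ± 6.21. ABCC9, the sulfonylurea receptor subunit of potassium channels, ABCC12 and the pseudogene ABCC13 had means of at most 18.2 in either group. ABCC12 had an interval of 0.01 to 1.40 that does not reach 0, and an adjusted p of 0.147.

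Subfamily D serves organelles, and its 2 members above background rose by a like amount. ABCD3, the main membrane protein of peroxisomes, imports branched and dicarboxylic acyl-CoAs. It read 895, 949, 1065 and 919 in siGFP and 1409, 1257, 1429 and 1241 in siESRP, and rose 1.39-fold (0.48 ± 0.08 SE, adjusted p = 0.00579). ABCD4, which brings vitamin B12 out of lysosomes, read 419.8, 431, 432 and 412 in siGFP and 553, 595, 526 and 622 in siESRP. It rose 1.35-fold (0.43 ± 0.06 SE, adjusted p = 0.00318). No array of either group overlapped the other group in these genes. Both calls ended only with the values as deposited (adjusted p = 0.0862 for ABCD3 and 0.0598 for ABCD4). ABCD2, a peroxisomal fatty acyl carrier, had means of 7.97 ± 1.99 and 11.3 ± 3.13 and was not called.

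**Figure D3:**
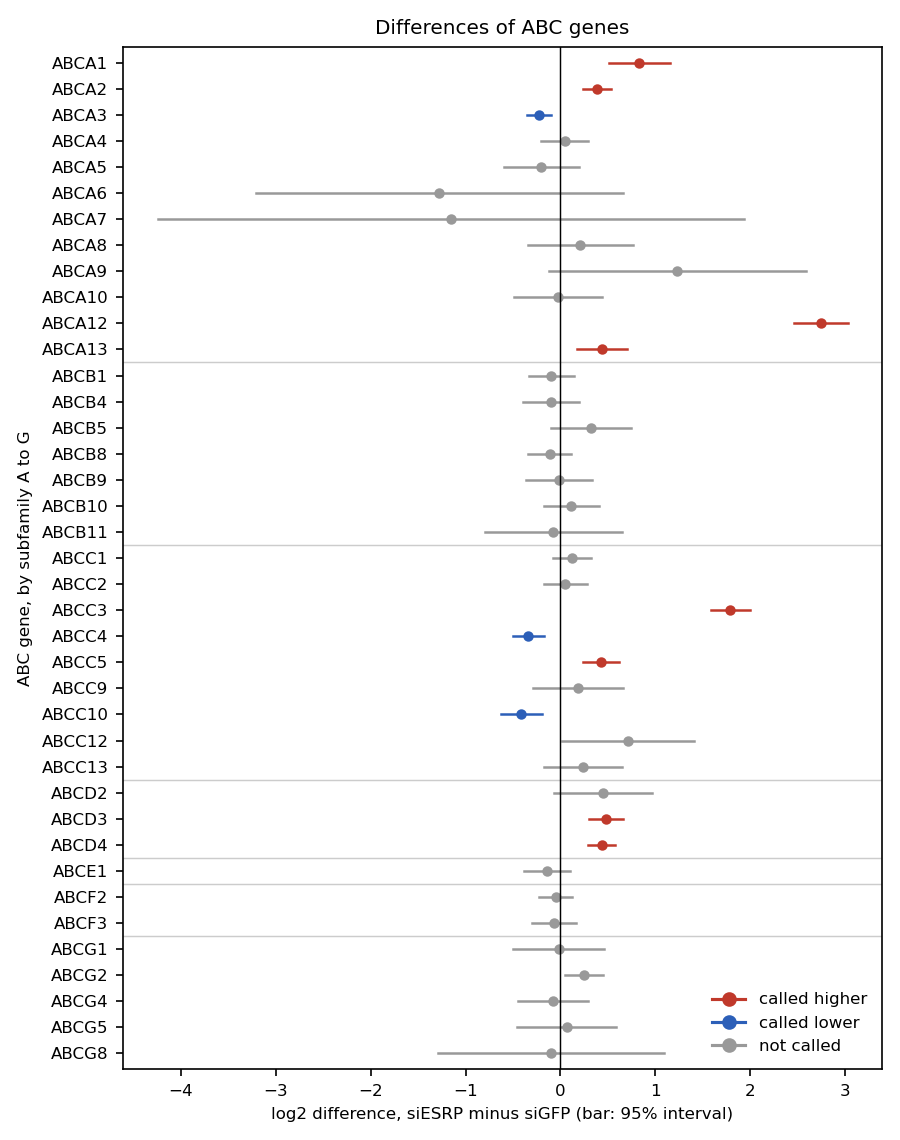
log2 difference, siESRP minus siGFP, of the 39 ABC genes with 95% intervals from the limma fit, by subfamily. Red marks the 8 genes called higher, blue the 3 called lower and grey the 28 not called. ABCA12 at 2.74 and ABCC3 at 1.79 stand to the right, and the wide grey intervals belong to genes at low intensity or with a wide spread.

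Subfamily B had 0 of 7 genes called by limma, and 0 at an unadjusted p under 0.05. ABCB8, a short transporter of the inner mitochondrial membrane, read 1261, 1069.8, 1118 and 1005 in siGFP and 980.2, 943, 1005 and 1186 in siESRP (interval of the log2 difference −0.34 to 0.11). ABCB10, a mitochondrial protein linked to haem synthesis, had means of 497 ± 76.0 and 535 ± 49.7 (−0.17 to 0.40), and ABCB9, a lysosomal peptide carrier, had 289 ± 39.7 and 287 ± 46.4 (−0.36 to 0.34). ABCB1, the multidrug pump P-glycoprotein, read 24.9, 25.1, 22.1 and 20.4 in siGFP and 23.9, 19.4, 19.8 and 23.4 in siESRP, near background in both. ABCB4, the phosphatidylcholine exporter of bile, ABCB5 and ABCB11, the bile salt export pump, had means of at most 37.0 in either group.

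Subfamily G had 0 of 5 genes called, with 1, ABCG2, at an unadjusted p under 0.05. ABCG2, the breast cancer resistance protein, which exports drugs and urate, read 1371, 1239.9, 1458 and 1249 in siGFP and 1731, 1401, 1618 and 1569 in siESRP. Only siESRP replicate 2 lay within the control range, and the difference of 0.25 ± 0.08 SE did not pass (adjusted p = 0.0823). Without that array the limma adjusted p was 0.0456, and this was the only 1 of the 15 alternative settings with a call. The adjusted p was 0.473 with values as deposited and 0.311 with arrays scaled to a common median. ABCG1 and ABCG4, sterol exporters, and ABCG5 had means under 50. ABCG8, which works with ABCG5 to export plant sterols, ran from 36.2 to 130.2 in siGFP and from 41.1 to 130.1 in siESRP, too wide to resolve a difference (interval −1.29 to 1.09).

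The 3 translation factors of subfamilies E and F were not called, and none had an unadjusted p under 0.05. ABCE1, which splits ribosomes for recycling, read 1762, 2309, 2369.7 and 2038 in siGFP and 2027, 1775, 1918 and 1934 in siESRP (interval −0.38 to 0.10). ABCF2 had means of 2489 ± 165 and 2402 ± 177 (−0.22 to 0.12). ABCF3 had means of 1289.8 ± 149 and 1224 ± 96.1 (−0.31 to 0.16). On the log2 scale these intervals reach down to −0.38 (ABCE1) and up to 0.16 (ABCF3). Of 14 measured genes for ribosome recycling and translation initiation, 0 were called by limma and 1 had an unadjusted p under 0.05.

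The 17 genes with both means under 50 had 0 calls by limma, and 1 (ABCC12) had an unadjusted p under 0.05. Of all rows with a mean over the 8 arrays under 50, 4.05% were called. Dim rows near background therefore give few calls in this table, and the lack of one says little about these 17 genes.

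**Figure D4:**
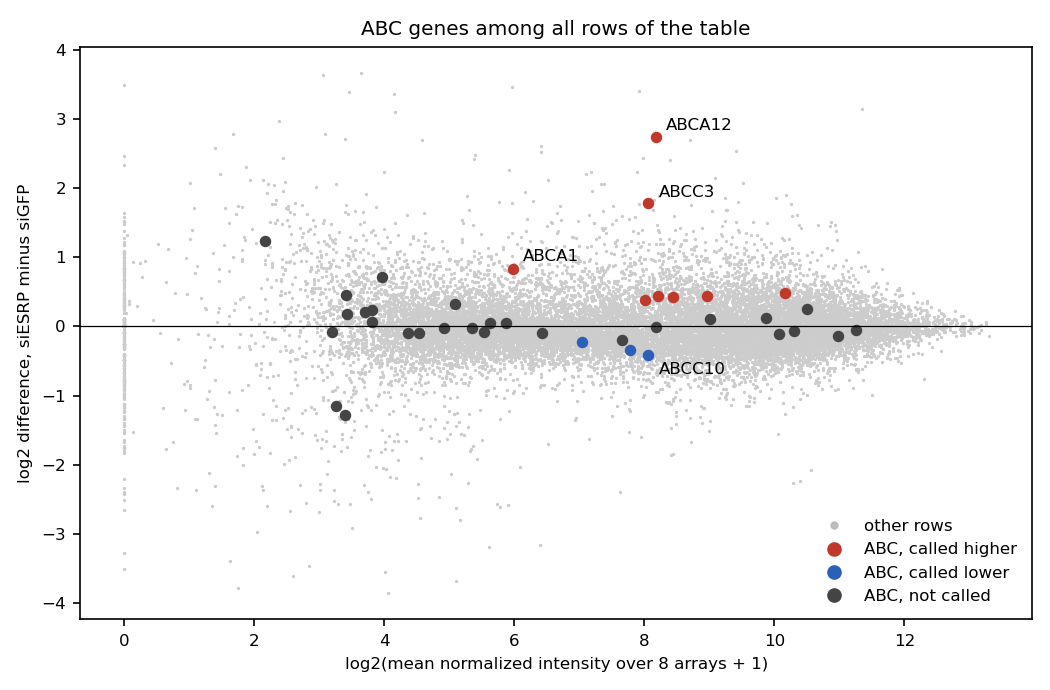
log2 difference, siESRP minus siGFP, against log2(mean normalized intensity over the 8 arrays + 1), with all other rows in light grey and ABC genes in red (called higher), blue (called lower) and dark grey (not called). ABCA12 lies near the top edge of the cloud at its intensity, and the 17 dim genes, without a call, lie at the left.

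Genomic order of the members was read from the RefSeq gene table. ABCA8, ABCA9, ABCA6, ABCA10 and ABCA5 follow each other without another protein-coding gene between them, as do ABCB4 and ABCB1, and ABCG5 and ABCG8. None of these 9 genes was called. Adjacent paralogues share sequence, so cross-hybridization between them was not tested. Around the 11 called genes, 3 of 22 nearest protein-coding neighbours with a row of their own were called (13.6%, against 20.2% of all rows). These were F3, the coagulation factor gene beside ABCD3 (1.82-fold higher, adjusted p = 0.000326), DZIP1 near ABCC4 (1.24-fold higher, 0.0353) and ZNF318 near ABCC10 (1.26-fold lower, 0.0322). DZIP1 and ZNF318 are each separated from the ABC gene by 1 protein-coding gene without a row of its own. BARD1 and ATIC, which flank ABCA12, had log2 differences of −0.01 and −0.07 and were not called, nor were CACNA1G and ANKRD40 beside ABCC3 (−0.20 and −0.17).

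Genes that work with ABC proteins were read from the same fit, as counts beside the 20.2% of all rows. Of 15 measured nuclear receptors and other regulators of ABC genes (of 23 listed), 4 were higher and 3 lower. PPARG, a fatty acid receptor that induces lipid export genes, read 638, 631, 781 and 663 in siGFP and 1365, 1236, 1327 and 1573 in siESRP, and rose 2.03-fold (adjusted p = 0.000772). PPARD rose 1.53-fold (0.00682), the xenobiotic receptor AHR 1.26-fold (0.0326) and GRHL3, a grainyhead factor of the skin barrier, 2.56-fold from 134 ± 28.4 to 342 ± 69.9 (0.00357). The 3 lower genes were MYLIP (1.29-fold), KEAP1 (1.30-fold) and RXRB (1.35-fold). MYLIP, the ligase that degrades the LDL receptor, is a target of liver X receptors rather than a regulator, though counted in this list. NR1H3, which encodes liver X receptor alpha, was not called (0.27, interval −0.10 to 0.65). The list median was −0.29.

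Of 13 measured genes of cellular cholesterol and lipid transport (of 20 listed), 4 were higher and 1 lower, with a median of 0.05. SCARB1, the high-density lipoprotein receptor, read 289, 288, 281 and 294 in siGFP and 889, 983, 859 and 980.4 in siESRP, and rose 3.21-fold (adjusted p = 3.70e-05). SOAT1, which esterifies cholesterol for storage, rose 2.08-fold (0.000115), CAV1 1.58-fold (0.00914) and the lysosomal lipase LIPA 1.32-fold (0.0215). NPC1, which moves cholesterol out of lysosomes, fell 1.22-fold (0.0491).

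Of 16 measured genes of the epidermal lipid barrier, where ABCA12 acts (of 18 listed), 2 were higher, 1 was lower and 13 were not called, with a median of 0.02. SULT2B1, the cholesterol sulfotransferase, rose 3.38-fold from 191 ± 29.1 to 646 ± 82.4 (adjusted p = 0.000338), the sphingomyelin synthase SGMS2 rose 2.04-fold, and the fatty acid elongase ELOVL1 fell 1.62-fold. CERS3, the ceramide synthase of the barrier, had means of 14.4 and 7.25. Of 15 measured cornification genes (of 20 listed), KLK7 rose 2.05-fold and CST6 1.195-fold, TGM1 fell 1.63-fold and SPRR3 1.43-fold, with a median of 0.00. The 4 measured markers of differentiated keratinocytes had 0 calls by limma and 1 unadjusted p under 0.05. That gene was KRT1, with means of 106 ± 20.8 in siGFP and 62.7 ± 27.8 in siESRP (log2 difference −0.85). The 4 summed to between 3949 and 6252 in siGFP and to between 4167 and 5913 in siESRP. These sums mainly follow the KRT10 row, with means of 4388 and 4350. The part of these markers in the ABCA12 result was not tested.

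Substrate supply for subfamily C was covered by 2 lists. Of 14 measured genes of glutathione synthesis and conjugation (of 16 listed), 3 were higher and 0 lower, with a median of 0.23. GCLC, the rate-limiting subunit of glutathione synthesis, rose 1.40-fold (adjusted p = 0.00185), GSTK1 1.32-fold and MGST2 1.47-fold. Of 8 measured glucuronidation and sulfation genes (of 15 listed), UGDH, which makes UDP-glucuronate, rose 1.59-fold, and of the sulfate donor synthases PAPSS1 rose 1.41-fold while PAPSS2 fell 1.66-fold (adjusted p at most 0.00735). The list median was 0.24. Of 15 measured uptake carriers of organic ions (of 20 listed), SLCO2A1, the prostaglandin carrier, fell 2.05-fold from 217 ± 30.2 to 104 ± 3.98 (adjusted p = 0.000829) and SLCO3A1 rose 1.19-fold, with a median of −0.11.

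Among 16 measured peroxisomal genes (of 20 listed), 2 were higher and 3 lower, with a median of −0.03. The acyl-CoA synthetase ACSL1 rose 1.51-fold and the carnitine transferase CROT 1.22-fold, while the peroxins PEX14 and PEX16 fell 1.23-fold and 1.42-fold and the thiolase ACAA1 fell 1.31-fold (adjusted p from 0.00203 to 0.0418). Of 16 measured genes of haem synthesis and iron-sulfur assembly (of 20 listed), 4 were higher and 0 lower, with a median of −0.13. FECH, which inserts iron into haem, rose 1.62-fold (adjusted p = 0.000347), the scaffold ISCU 1.47-fold, the mitochondrial carrier SLC25A39 1.40-fold and the haem exporter FLVCR1 1.59-fold.

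KCNJ8 and KCNJ11, which encode the pore subunits that assemble with sulfonylurea receptors such as ABCC9, had log2 differences of −0.11 and −0.23. With KCNJ1 and KCNJ5, listed beside them as other inward rectifier channels, the 4 genes had 0 calls by limma, 1 unadjusted p under 0.05 (KCNJ5, −0.82) and means under 50. Family members known by other symbols are no part of the 39. The antigen peptide carriers TAP1 and TAP2 had means of 1652 ± 91.2 and 1461 ± 101 in siGFP and 1737 ± 169 and 1285 ± 125 in siESRP, and the chloride channel CFTR had 20.3 ± 2.90 and 18.3 ± 1.84. None of the 3 was called, nor had any an unadjusted p under 0.05.

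**Figure D5:**
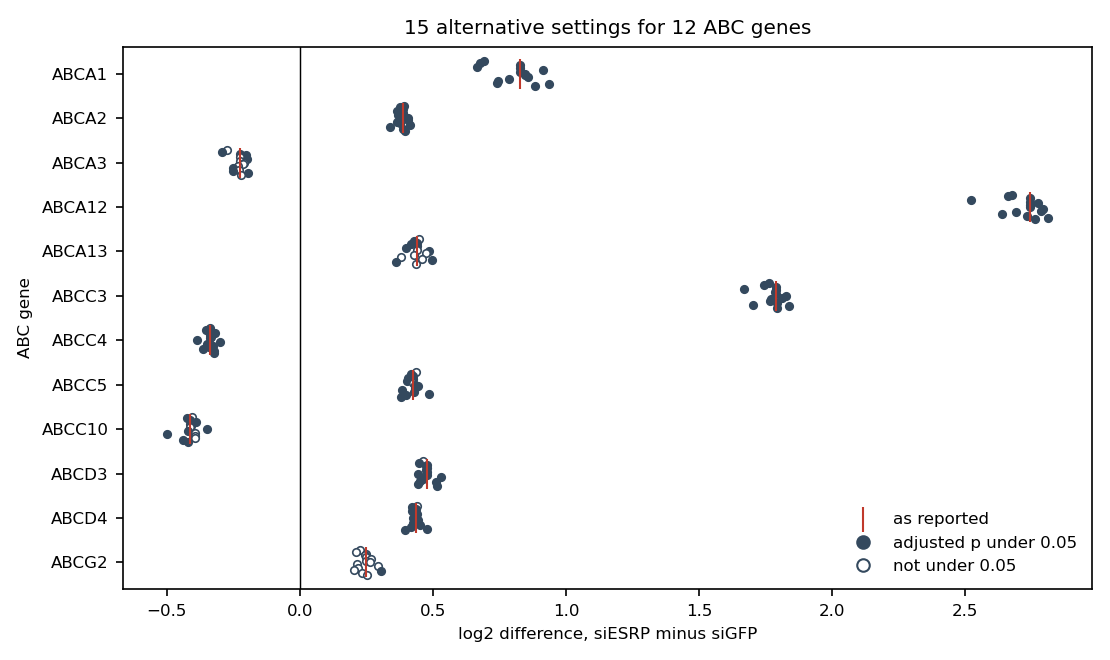
log2 difference, siESRP minus siGFP, of the 11 called ABC genes and ABCG2 under 15 alternative settings (circles, filled where the adjusted p is under 0.05) and as reported (red bar). No gene crosses 0. ABCA1, ABCA2, ABCA12, ABCC3 and ABCC4 are filled throughout, while ABCA3 and ABCA13 have 8 and 7 open circles.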

How the data were processed

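The labels' protocols describe ribosomal RNA depletion of total RNA and labelling of sense-strand DNA for exon arrays. The authors deposited linear intensity values, 1 per transcript cluster. How they corrected background, summarised probes or scaled arrays is not given in the sources used here. Between 2.70% and 4.02% of values per array lie below 0.

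Intensities were quantile normalized on the linear scale, floored at 0 and taken as log2(value + 1). limma 3.58.1 (R 4.3.3, lmFit, eBayes, two-sided, no covariate) was fitted over all 18495 rows and 8 arrays with Benjamini-Hochberg adjustment at 0.05. The steps were also run on simulated arrays with far fewer changed rows than were called here. That run therefore does not show how the steps behave when many rows change. The number of arrays limits precision. Symbols came from GEO's platform annotation, and all 39 Entrez identifiers matched RefSeq (GRCh38.p14) with the same symbol. A list gene with several rows was read from the row with the highest mean.

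Members and lists were chosen with earlier results of these data known. The rule for named genes took ABCA12, called ABC genes with a mean of at least 50, and the brightest and 2 lowest-p rows per subfamily; all other members are accounted for. Lists gave up to 4 genes by smallest p, with TAP1, TAP2 and CFTR; other named list genes, markers and neighbours were chosen after their values were seen.

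Alternatives were no normalization, scaling to 1 median, dropping the dimmest 25% of rows, log2(value + 16), eBayes with trend and robust moderation, limma array weights, a replicate block, each array left out, and, for counts, an adjusted p under 0.01, at least 1.5-fold, or 1 row per gene.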

Additional observations from a re-analysis of the deposited data

Results flagged for a closer look

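Dixon's ratio, the gap between an extreme array and its nearest neighbour divided by the range of its group, was computed in both groups for the 39 ABC genes, ESRP1 and 205 list, marker and neighbouring genes. It passed the 95% critical value in 16 of 490 groups of 4 arrays, where chance gives about 1 in 20, or 24.5. ABCA5 was the only ABC gene among them. Its ratio in siGFP was 0.879, with replicate 1 low at 179 against 224 for the next array.

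The other ratios in siGFP were 0.916 for STARD3 and 0.874 for PEX16, both high in replicate 1 (PEX16 at 968 against 685), and 0.915 for ANKRD40, high in replicate 4. In siESRP, EIF2S3 had 0.955, with replicate 1 at 10860.5 against 4594 for the next array. Replicate 2 stood apart for ELOVL1 (0.971, 1306 against 1444), CROT (0.857), GSS (0.833) and VWC2 (0.962). Replicate 3 was low for VLDLR (0.857), TGM5 (0.872) and GSTZ1 (0.931) and high for COL1A2 (0.903), DLK2 (0.875), NPDC1 (0.890) and UPP1 (0.912).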

How the results depend on the processing

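None of the 11 called ABC genes, ABCG2 or ESRP1 changed direction under the alternatives run. The count of 11 called (8 higher, 3 lower) fell to 5 with values as deposited (4 higher, 1 lower), to 7 with the replicate block (1 lower), to 6 at an adjusted p under 0.01 (0 lower) and to 3 with at least 1.5-fold (3 higher, 0 lower). Leaving out 1 array gave 8 to 11 calls, of which 1 to 3 were lower; without siGFP replicate 3 or siESRP replicate 1 only 1 was lower. Without siESRP replicate 2, 11 were called, 10 of them shared, with ABCG2 in place of ABCC10. Over all rows, 3729 calls became 1673 as deposited, 2292 with the block, 1808 at 0.01 and 1309 with 1.5-fold. The cause was not tested. The labels do not say whether equal replicate numbers mark matched samples. Same-numbered arrays' deviations from their group means correlated at 0.15, 0.09, −0.27 and −0.02, with no common sign. These values cannot settle whether the samples were handled in matched sets. Under the block ABCA3 (adjusted p = 0.0628), ABCA13 (0.106), ABCC5 (0.0682) and ABCC10 (0.0723) lost their calls. Leaving out the dimmest 25% of rows kept 23 ABC genes in the test and the same 11 calls. Levels near 0 cannot be told from background, which limits the 17 dim genes.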
